A study of Mus musculus with 8 samples.

Results

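The genes of the cytosolic ribosomal proteins were followed through 8 bulk liver libraries of mice with diet-induced steatohepatitis. They were taken by symbol, as every row whose name is Rpl or Rps with a number and an optional a, l or x ending, together with Rplp0, Rplp1, Rplp2 and Rpsa. This gave 88 of the 55335 rows of the deposited table, 52 for the large subunit and 36 for the small one, and rows with a pseudogene symbol ending in -ps were left out. Both groups were WT mice on the diet CDAHFD (choline-deficient, defined in its amino acids, high in fat) that had received human circulating vesicles into a vein. In RIC_hEV (4 libraries) the vesicles came from volunteers after remote limb ischemic conditioning, in which blood flow to a limb is interrupted for short spells, and in ctr_hEV (4 libraries) from volunteers after a sham procedure. The comparison asks what conditioning changes in the effect of the vesicles on the liver. No group on normal diet or without vesicles was analysed here. The labels give neither age, sex, dose nor time, and they do not say that each library is a separate mouse, so the p-values measure the spread between these libraries, which may be in part technical.

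The small subunit of the cytosolic ribosome reads the messenger RNA and the large subunit joins the amino acids, and each carries a fixed set of proteins on a core of ribosomal RNA. The proteins are needed in matched amounts, and in mammals most of their mRNAs begin with a C followed by a run of pyrimidines, the terminal oligopyrimidine tract, through which the kinase complex mTORC1 and the RNA-binding protein LARP1 set their translation and stability. In the liver, hepatocytes spend much of this capacity on the proteins of blood plasma.

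Levels are in FPKM, the fragments of a gene scaled to its length and to the depth of the library. Which gene lengths went into this was not given in the sources used here. Estimated depth was 19700000 to 29200000 fragments per library. This is a rough figure, since only 5.26% to 11.1% of low values lay within 0.02 of a whole number of fragments. All 6 hepatocyte markers were above 1 FPKM on average, and their summed FPKM was 32640 to 38730 in RIC_hEV and 26230 to 40920 in ctr_hEV. The library ctr_hEV 1 stood apart from the rest, with the lowest summed hepatocyte markers (26230 FPKM) and the highest summed markers of macrophages (752.3 FPKM) and of stellate cells and fibroblasts (221.6 FPKM). The 4 RIC_hEV libraries held 390.6 to 543.2 FPKM of macrophage markers, and the other 3 ctr_hEV libraries 418.8 to 655.8 FPKM. Earlier results of these data also set ctr_hEV 3 apart. In bulk tissue, fewer cells of a type and less RNA per cell cannot be told apart.

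Of the 88 genes, 84 had a mean of at least 1 FPKM over the 8 libraries and were tested, 49 of the large and 35 of the small subunit. The genes below this level were Rpl3l, Rpl10l, Rpl39l and Rps12l1. Among the 80 tested genes annotated as protein-coding, mean levels ran from 16.1 FPKM for Rps15a to 764 FPKM for Rplp1, a 47.6-fold range. Rplp1, which pairs with Rplp2 in the flexible stalk that draws translation factors to the ribosome, was followed by the stalk base Rplp0 at 373 FPKM and by Rpl36 at 354 FPKM. On the small subunit the order began with Rps15 at 346.5 FPKM, a protein at the head of that subunit, then Rps3a1 at 263 FPKM and Rps29, a small zinc-binding protein, at 217.2 FPKM. Neighbours in this order did not all differ beyond their spread: Rplp0 had 369 ± 39.3 FPKM in RIC_hEV and 377.5 ± 46.0 in ctr_hEV, and Rpl36 had 369 ± 41.7 and 339 ± 23.3 FPKM in the same groups (SD, n = 4 per group). The median level was 81.9 FPKM over the large-subunit genes and 106.6 FPKM over the small-subunit genes.

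**Figure D1:**
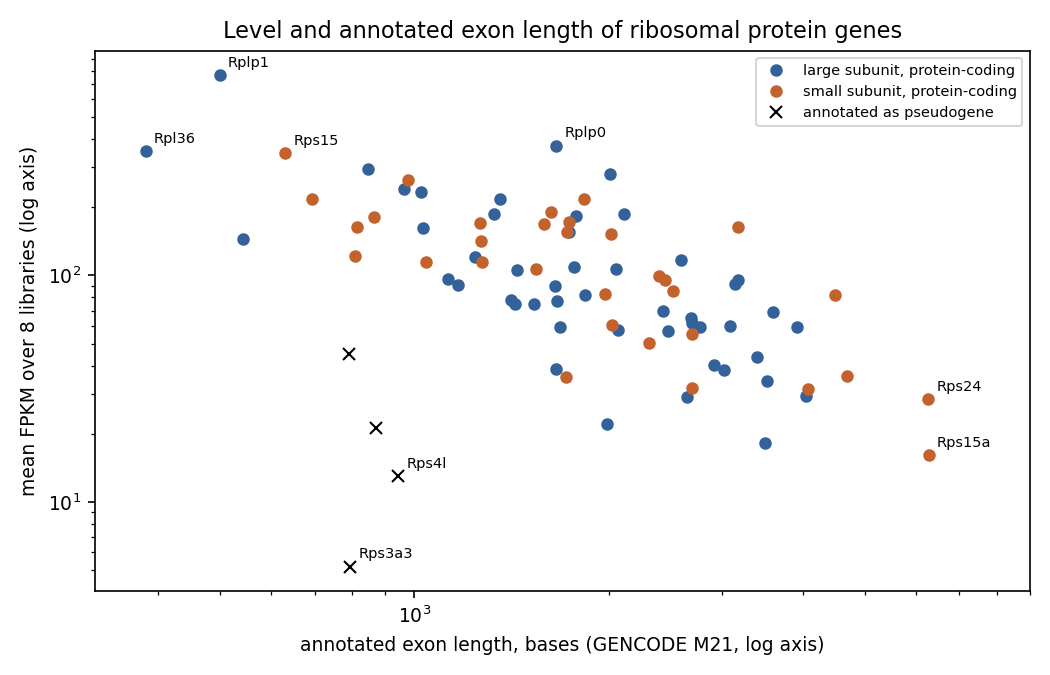
Mean FPKM over 8 libraries (log axis) against annotated exon length in bases (GENCODE M21, log axis) for the 84 tested ribosomal protein genes, with large-subunit genes in blue, small-subunit genes in orange and genes annotated as pseudogenes as crosses. The protein-coding genes run downwards to the right, from Rpl36 and Rplp1 to Rps15a, and the 4 crosses lie below the coding genes of like length.

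The order of the levels followed the annotated length of the genes. The 27 shortest protein-coding genes, with 383 to 1544 bases of annotated exon, had a median of 161.7 FPKM, the next 27 (1586 to 2451 bases) had 99.8 FPKM, and the 26 longest (2473 to 6270 bases) had 56.0 FPKM. Spearman's rho between mean FPKM and exon length was -0.70 over these 80 genes, which share their libraries, and FPKM is itself divided by a length. Multiplied by the annotated exon length in kilobases, the levels ran from 44.1 to 619, a 14.1-fold range. Near-identical copies also bear on the levels. Of all stretches of 31 bases in a gene's annotated exons, a median of 28.1% over the 84 genes also occurred in another annotated gene, and 94.1% did so at Rpl36. At 12 genes at least 50% of the stretches were shared, among them Rplp1 (75.1%) and Rps3a1 (76.9%), so their levels are uncertain by however the reads of copies were counted. Over the 80 coding genes, rho between level and shared share was 0.62. The 275 rows of ribosomal protein pseudogenes with a -ps symbol held 2030 to 2610 summed FPKM in RIC_hEV and 2134 to 2612 in ctr_hEV.

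The DNA around the transcription starts carried the pyrimidine letters of the tract, and the stretches shown here are those of some of the genes described in this report. RefSeq promoter windows (build GRCm38.p6) were at hand for 63 of the genes, 39 large and 24 small. A run of at least 8 pyrimidines beginning with C, on the gene's own strand and within 50 bases on either side of the start, was present at 52 of the 63 (82.5%), against 32.7% of 17492 protein-coding genes. On the opposite strand it was present at 20.6% of the ribosomal protein genes and 34.3% of the coding genes. The runs had a median length of 10 bases and reached 20, and 32 of the 58 windows that held a run had one that began within 20 bases of the start. In the following 60-base stretches, 30 bases before and 30 after the annotated start, capitals mark such a run.
Rplp2 (chr7:141447621-141447680, plus strand): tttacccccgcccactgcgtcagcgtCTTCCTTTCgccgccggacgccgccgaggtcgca
Rpl13a (chr7:45128716-45128775, minus strand): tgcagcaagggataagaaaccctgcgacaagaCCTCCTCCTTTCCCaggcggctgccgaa
Rpl22l1 (chr3:28805478-28805537, plus strand): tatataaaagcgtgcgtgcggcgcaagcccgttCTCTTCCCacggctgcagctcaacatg
Rps10 (chr17:27635215-27635274, minus strand): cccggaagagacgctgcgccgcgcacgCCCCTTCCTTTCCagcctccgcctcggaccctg
Rps25 (chr9:44407684-44407743, plus strand): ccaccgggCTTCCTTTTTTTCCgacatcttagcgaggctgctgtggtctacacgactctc
Rps15a (chr7:118116118-118116177, minus strand): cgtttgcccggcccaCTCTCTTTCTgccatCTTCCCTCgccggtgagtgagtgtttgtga
Rps27 (chr3:90213619-90213678, minus strand): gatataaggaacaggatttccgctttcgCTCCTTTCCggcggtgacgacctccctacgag
Rps27l (chr9:66946056-66946115, plus strand): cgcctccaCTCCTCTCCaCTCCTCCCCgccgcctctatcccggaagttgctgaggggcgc
Rplp0 (chr5:115559437-115559496, plus strand): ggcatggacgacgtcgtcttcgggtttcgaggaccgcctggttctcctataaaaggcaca
Rpl7l1 (chr17:46782627-46782686, minus strand): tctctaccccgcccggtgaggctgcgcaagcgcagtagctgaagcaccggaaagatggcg
The run lay across or close to the start in Rplp2, Rpl13a, Rps10 and Rps27, whereas the stretches of Rplp0 and Rpl7l1 held none. Among the genes not printed, Rpsa, Rps15, Rps3a1, Rps4x, Rps28, Rpl10, Rpl22 and Rps21 also held none in these 60 bases, a region narrower than that searched above. The printed stretches thus show the run more often than the named genes do as a whole. No match says only that these letters are not in the window.

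Both subunits had the run more often than coding genes at large, at 87.2% of large-subunit and 75% of small-subunit genes. The shorter string CTTTCC on the gene's strand, which can lie inside a run, was found in the same region at 41% of large-subunit genes, 12.5% of small-subunit genes and 5.12% of coding genes. Searched on both strands over the whole window of 250 bases before and 50 after the start, CTTCCGG, the core letters bound by ETS factors, was present at 41.3% of the ribosomal protein genes and 12.9% of coding genes. CCATCTT, the core of YY1 sites, was present at 15.9% and 7.18%, and TATAAA at 11.1% and 14.8%. The windows differed little in base composition, with a median GC content of 57% at the ribosomal protein genes and 56.3% at coding genes. Of the tested genes with a window, the 50 with a run had a median log2 fold change, RIC_hEV over ctr_hEV, of 0.0091, and the 10 without had 0.019.

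Between libraries, the ribosomal protein genes moved together. On the log2(FPKM + 1) scale, the median deviation of the 84 genes from their own means was -0.14 in RIC_hEV 1, 0.093 in RIC_hEV 2, 0.22 in RIC_hEV 3 and -0.14 in RIC_hEV 4. It was 0.14 in ctr_hEV 1, -0.093 in ctr_hEV 2, 0.0057 in ctr_hEV 3 and -0.069 in ctr_hEV 4. Thus each group held both high and low libraries: the range was 0.37 among RIC_hEV and 0.23 among ctr_hEV libraries, and the difference between the means of the groups was 0.011. RIC_hEV 3 gave the highest of the 8 values for 50 genes and ctr_hEV 1 for 25, while RIC_hEV 1 gave the lowest for 35 and RIC_hEV 4 for 23. In RIC_hEV 3, 80 of the 84 genes lay above their own mean, against 8 in RIC_hEV 1.

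**Figure D2:**
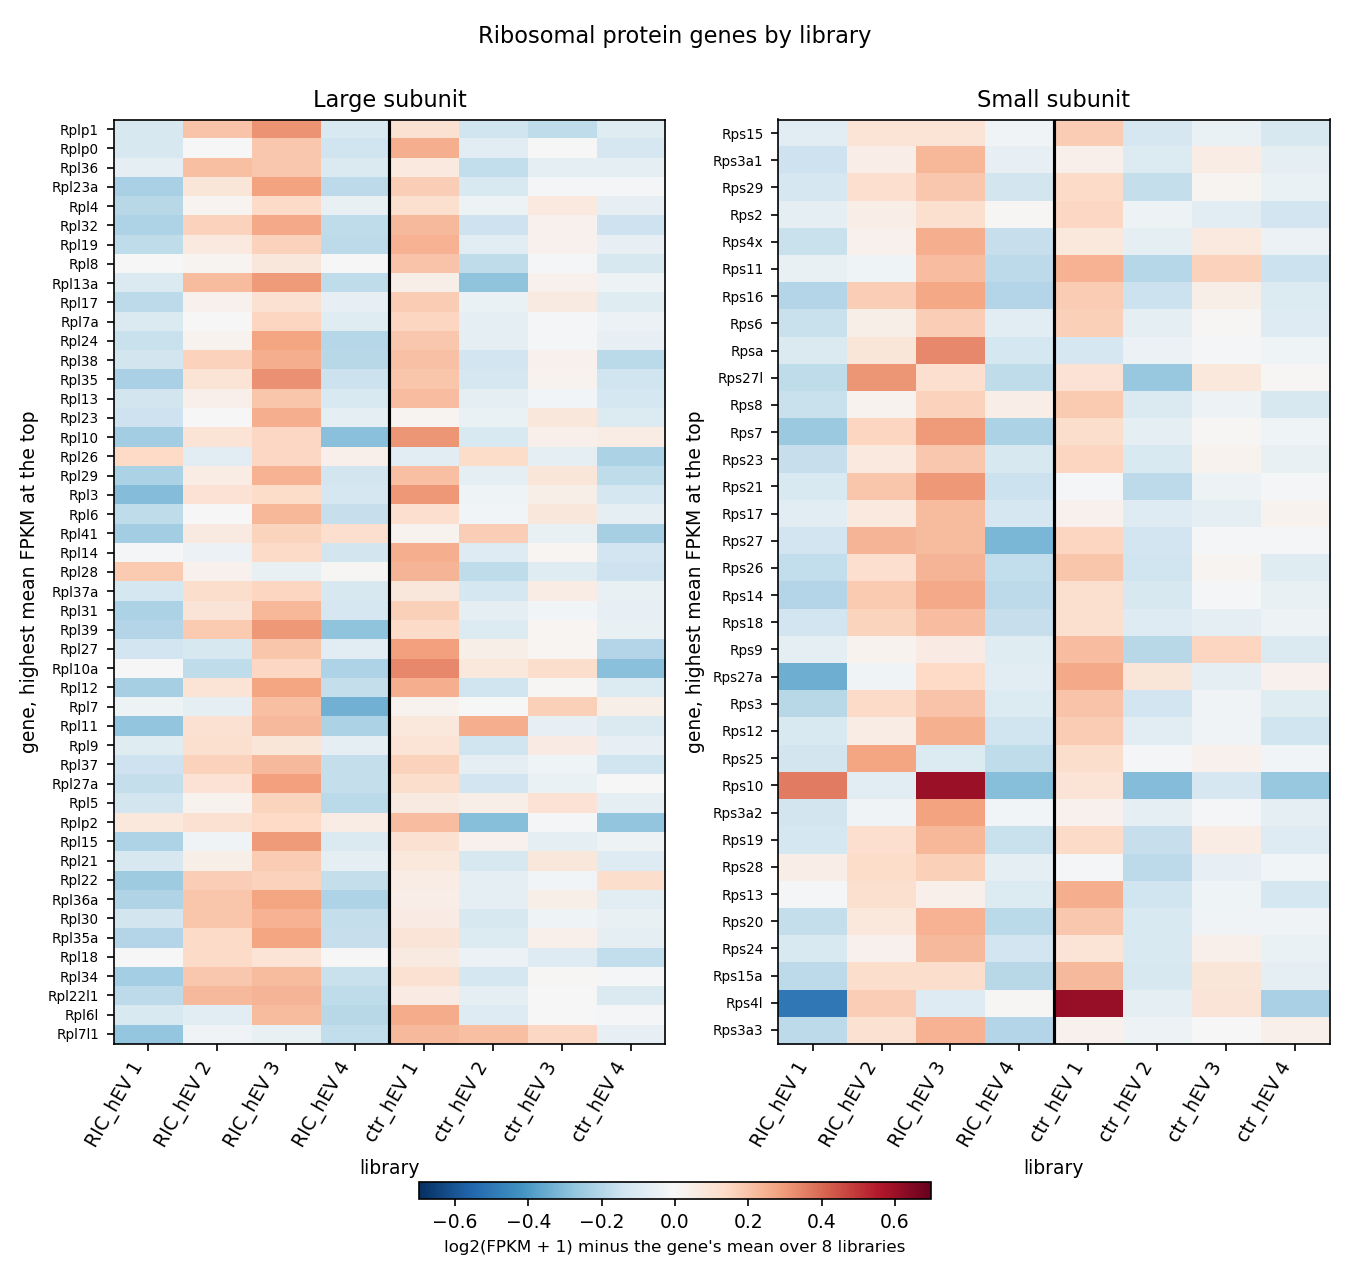
Each row is a ribosomal protein gene, each column a library, and the colour gives log2(FPKM + 1) minus the gene's mean over the 8 libraries, with large-subunit genes on the left and small-subunit genes on the right, sorted by mean FPKM. The columns of RIC_hEV 2, RIC_hEV 3 and ctr_hEV 1 are red over most rows and those of RIC_hEV 1 and RIC_hEV 4 are blue, and Rps10 and Rps4l differ from their columns.

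This movement was not that of the transcriptome as a whole. The median deviation of all 11274 tested genes was -0.11, -0.064, -0.050 and 0.0014 in RIC_hEV 1 to 4, and 0.18, 0.021, 0.091 and -0.072 in ctr_hEV 1 to 4, so RIC_hEV 2 and RIC_hEV 3, which were high for ribosomal protein genes, lay below 0 for the median gene. The median SD of a ribosomal protein gene between libraries of the same group was 0.17 on the log2 scale, and 0.072 once the libraries' median deviations within the group were subtracted, with a smaller SD at 79 of 84 genes. For all tested genes the same step took the median SD only to 0.16, against 0.18 before it. Markers of macrophages and of stellate cells and fibroblasts were high in ctr_hEV 1. In RIC_hEV 3 they were not, with sums of 483 and 121.5 FPKM. Other cell types differed: erythroid (505.8 FPKM) and cholangiocyte markers (16.9 FPKM) were also highest in ctr_hEV 1, but those of B and plasma cells were lowest there (1.301 FPKM). Neutrophil markers were highest in ctr_hEV 3 (57.53 FPKM) and endothelial markers in RIC_hEV 4 (78.61 FPKM). Mitochondrially encoded transcripts took 17.9% to 19.0% of FPKM in RIC_hEV and 15.1% to 18.5% in ctr_hEV. The part of these values in the movement was not tested.

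The share of FPKM held by the ribosomal protein genes was 2.18%, 2.50%, 2.73% and 2.27% in RIC_hEV 1 to 4, and 2.86%, 2.30%, 2.50% and 2.24% in ctr_hEV 1 to 4. The groups overlapped over nearly their whole range, with 2.42% ± 0.246 in RIC_hEV and 2.47% ± 0.278 in ctr_hEV (SD, n = 4 per group).

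On the scale of the deposited FPKM, RIC_hEV livers held ribosomal protein mRNA at close to the same level as ctr_hEV livers. None of the 84 genes passed the threshold in limma with Benjamini-Hochberg adjustment over all 11274 genes (0 genes), and 2 of the 84 (2.38%) had an unadjusted p under 0.05. Over all tested genes 4 passed (0.0355%) and 1576 had an unadjusted p under 0.05 (14%). No ribosomal protein gene had all 4 RIC_hEV values above or below all 4 ctr_hEV values, against 662 of all tested genes (5.87%; 1.31% higher and 4.56% lower in RIC_hEV). Of the 2 genes at an unadjusted p under 0.05, 1 was higher in RIC_hEV, as 2.63% of all tested genes were, and 1, Rpl7l1, was lower, as 11.3% were.

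The median log2 fold change of the 84 genes, RIC_hEV over ctr_hEV, was 0.017 as fitted. At 68 of them (81.0%) it lay within 0.1 of 0 as fitted, against 34.1% of all tested genes. The genes moved together between libraries, so these are not 68 separate results. The 95% interval, which is not adjusted for the number of genes, lay within 0.5 of 0 at 81 of the 84. Its median half-width was 0.27, so smaller shifts of a typical single gene could not be told from 0. Larger shifts could also miss the adjusted threshold: the interval of Rpl7l1 excluded 0, yet its limma adjusted p was 0.354. The median over all tested genes was -0.11, since most genes lay lower in RIC_hEV on this scale. Relative to that median the ribosomal protein genes lay at 0.13, with 78 of 84 above it. This relative place depended on the scaling of the libraries: after quantile normalization it was -0.017, with 36 of 84 above the median gene. As fitted, 48 of the 84 lay above 0 and 36 below, against 27% of all tested genes above 0. The count above 0 was 80 after centring each library on its median gene, with a median log2 fold change of 0.15. It was 32 after quantile normalization (median -0.023) and 14 when each library was rescaled to the same total FPKM (median -0.041). Thus the data give no direction for the family.

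**Figure D3:**
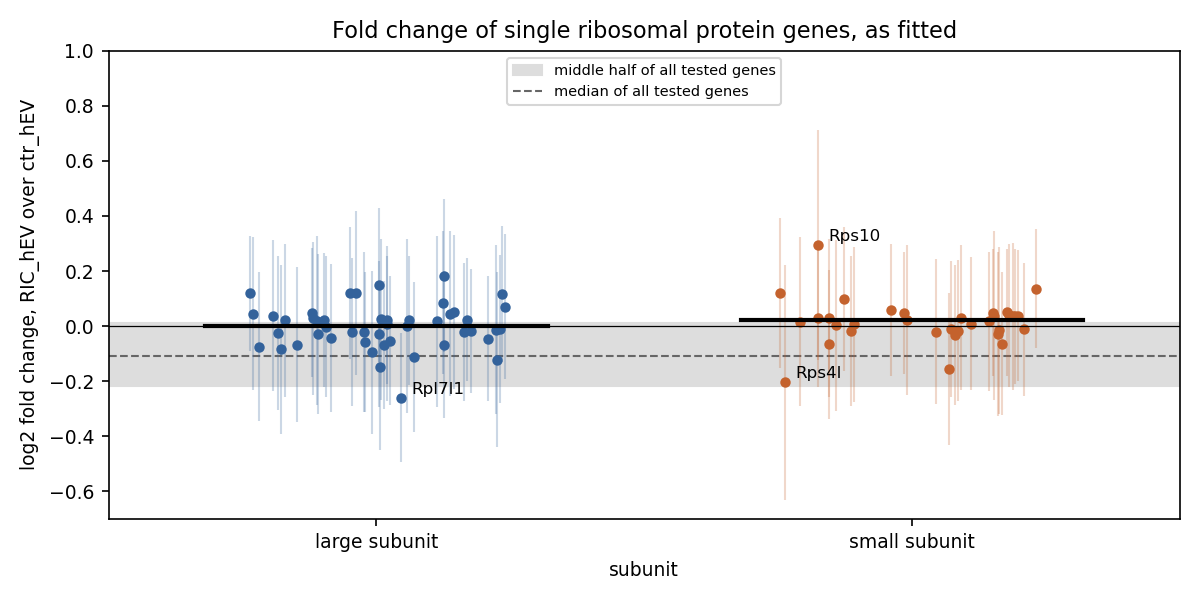
Log2 fold change of single ribosomal protein genes as fitted on log2(FPKM + 1), RIC_hEV over ctr_hEV, for large-subunit genes (blue) and small-subunit genes (orange), with 95% intervals as thin lines, the median of all tested genes of each subunit as a black bar, and the quartile range and median of all tested genes as a grey band and a dashed line. Most points lie within 0.1 of 0, above the dashed line at -0.11, and Rps10 at 0.29 and Rpl7l1 at -0.26 lie farthest out.

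Without ctr_hEV 1 and ctr_hEV 3, the median log2 fold change of the 84 genes was 0.093, 74 lay above 0, and that of all tested genes was -0.029. In that fit 0 ribosomal protein genes passed the threshold and 1 of the 84 had an unadjusted p under 0.05 (Rplp2). Of all 11274 tested genes, 8 passed and 5.21% had an unadjusted p under 0.05. The groups of 4 RIC_hEV and 2 ctr_hEV libraries did not overlap at 7 of the 84 genes, against 14.0% of all tested genes.

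The large and the small subunit lay at nearly the same place. The median log2 fold change was 0.00018 over 49 large-subunit genes, of which 25 lay above 0 and 24 below, and 0.022 over 35 small-subunit genes, of which 23 lay above 0 and 12 below. The difference of these medians, large minus small, was -0.021, and the widths between the quartiles were 0.090 and 0.055. The 2 genes at an unadjusted p under 0.05 both belonged to the large subunit, and the difference between the subunits was not tested, since genes are not replicates. Within the libraries the subunits kept step. The summed FPKM of large-subunit over small-subunit genes was 1.525, 1.518, 1.535 and 1.523 in RIC_hEV 1 to 4, and 1.536, 1.554, 1.498 and 1.492 in ctr_hEV 1 to 4. The means were 1.525 ± 0.00736 in RIC_hEV and 1.52 ± 0.0300 in ctr_hEV (SD, n = 4 per group), so the groups overlapped, with the wider spread in ctr_hEV.

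**Figure D4:**
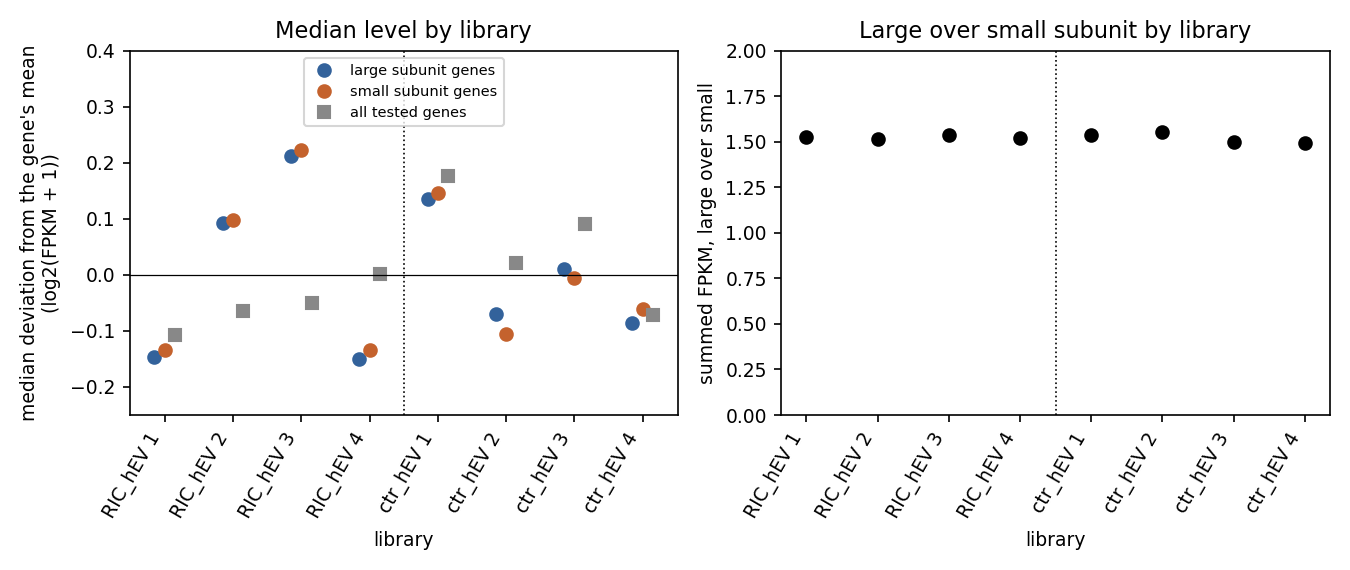
Left, the median deviation from the gene's own mean on log2(FPKM + 1) in each library, for large-subunit genes (blue), small-subunit genes (orange) and all tested genes (grey squares). Right, summed FPKM of large-subunit over small-subunit genes in each library, with the axis from 0. Blue and orange points lie side by side in every library and apart from the grey squares in RIC_hEV 2 and RIC_hEV 3, and the ratio stays between 1.492 and 1.554.

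Among large-subunit genes, the stalk pair Rplp2 and Rplp1 was near the upper end, while the stalk base Rplp0 was not. Rplp2 had 60.1, 61.5, 62.8 and 59.1 FPKM in RIC_hEV 1 to 4, against 66.4, 46.2, 56.7 and 47.0 FPKM in ctr_hEV 1 to 4. Its RIC_hEV values lay close together, and ctr_hEV 1 lay above all of them while the other 3 ctr_hEV libraries lay below. Its log2 fold change was 0.18 (SE 0.13, limma adjusted p = 0.474). Its partner Rplp1 had 703, 871.5, 944 and 706 FPKM in RIC_hEV 1 to 4, against 816, 689, 670.4 and 714 FPKM in ctr_hEV 1 to 4. Here RIC_hEV 2 and RIC_hEV 3 were the high libraries and the other 2 RIC_hEV libraries lay among the ctr_hEV values, for a log2 fold change of 0.15 (SE 0.13, limma adjusted p = 0.545). Rplp0, which anchors both to the ribosome, had a log2 fold change of -0.03 (SE 0.12, limma adjusted p = 0.911). Rpl13a, which in human cells can also leave the ribosome to silence inflammatory mRNAs, had 173, 217.1, 229 and 164.5 FPKM in RIC_hEV 1 to 4, against 192, 153, 190.3 and 182 FPKM in ctr_hEV 1 to 4. Its ctr_hEV values lay inside the range of the RIC_hEV values except for ctr_hEV 2, which was lower, and its log2 fold change was 0.12 (SE 0.14).

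At the lower end of the large subunit, Rpl7l1 (chr17:46773907-46782672, minus strand, mm10), a relative of Rpl7 whose yeast counterpart acts in the assembly of the large subunit, had 14.8, 17.8, 17.4 and 16.0 FPKM in RIC_hEV 1 to 4. In ctr_hEV 1 to 4 it had 21.4, 21.1, 20.2 and 17.4 FPKM. The first 3 ctr_hEV libraries exceeded every RIC_hEV library and ctr_hEV 4 did not. The log2 fold change was -0.26 (SE 0.11, limma adjusted p = 0.354, 95% interval -0.50 to -0.026). Without ctr_hEV 4 the groups did not overlap at Rpl7l1, nor did they at 25.12% of all tested genes in that fit. The log2 fold change of Rpl7l1 was then -0.32, with a limma adjusted p of 0.0926, while the count of all genes past the threshold went to 176.

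The next genes at the lower end did not separate the groups either. Rpl10, a protein that joins the large subunit late in its assembly, had 89.7, 113.4, 117.4 and 86.7 FPKM in RIC_hEV 1 to 4, against 132.1, 98.7, 109.0 and 110.3 FPKM in ctr_hEV 1 to 4, a log2 fold change of -0.15 (SE 0.14, limma adjusted p = 0.578). Rpl10a, which forms the mobile stalk beside the exit site of the transfer RNA, had 69.1, 60.8, 76.2 and 59.2 FPKM in RIC_hEV 1 to 4, against 87.1, 72.6, 75.2 and 56.0 FPKM in ctr_hEV 1 to 4, a log2 fold change of -0.12 (SE 0.14). Rpl7 had a log2 fold change of -0.11 (SE 0.12), from 62.6, 61.5, 74.6 and 50.6 FPKM in RIC_hEV 1 to 4 and 65.3, 64.1, 72.3 and 66.1 FPKM in ctr_hEV 1 to 4. For Rpl10 and Rpl10a the highest value was that of ctr_hEV 1, and for Rpl7 it was that of RIC_hEV 3.

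On the small subunit, Rps10 (chr17:27630418-27636669, minus strand, mm10), which sits near the entry of the mRNA, had the largest log2 fold change among the small-subunit genes described here. It had 63.7, 46.6, 75.3 and 40.0 FPKM in RIC_hEV 1 to 4, against 52.7, 39.8, 45.4 and 40.8 FPKM in ctr_hEV 1 to 4. RIC_hEV 1 and RIC_hEV 3 lay above all ctr_hEV libraries and RIC_hEV 4 lay at their lower end. The log2 fold change was 0.29 (SE 0.19, limma adjusted p = 0.450) and 0.14 without RIC_hEV 3. The log2 fold changes of Rps28, Rps21 and Rpsa were 0.14 (SE 0.097), 0.12 (SE 0.12) and 0.10 (SE 0.12). Rps28, a small protein of the subunit's head, had 36.8, 39.1, 40.2 and 33.9 FPKM in RIC_hEV 1 to 4, against 35.4, 31.2, 34.3 and 35.1 FPKM in ctr_hEV 1 to 4, so 3 RIC_hEV libraries lay above every ctr_hEV library. Rpsa, known also as the laminin receptor, had 151.6, 172.5, 206.0 and 149.7 FPKM in RIC_hEV 1 to 4, against 149.8, 158.2, 162.2 and 159.3 FPKM in ctr_hEV 1 to 4. RIC_hEV 2 and RIC_hEV 3 lay above all ctr_hEV values, with 170 ± 26.2 FPKM in RIC_hEV and a narrower 157 ± 5.33 FPKM in ctr_hEV (SD, n = 4 per group). Rps21, another small protein of the subunit, had 112, 138.5, 149.7 and 109.0 FPKM in RIC_hEV 1 to 4, against 120.1, 106.5, 118.0 and 119.7 FPKM in ctr_hEV 1 to 4, again with RIC_hEV 2 and RIC_hEV 3 as the high libraries.

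At the lower end of the small subunit stood Rps4l, a copy of Rps4x annotated as a transcribed pseudogene. It had 8.66, 14.4, 11.8 and 12.7 FPKM in RIC_hEV 1 to 4, against 19.8, 12.1, 13.6 and 10.7 FPKM in ctr_hEV 1 to 4, and its highest value was that of ctr_hEV 1. The log2 fold change was -0.20 (SE 0.19, limma adjusted p = 0.587). Rps27a, which is made as a fusion with ubiquitin, had 64.9, 81.1, 91.0 and 78.0 FPKM in RIC_hEV 1 to 4, against 99.6, 87.5, 78.7 and 84.2 FPKM in ctr_hEV 1 to 4. Its log2 fold change was -0.16 (SE 0.12, limma adjusted p = 0.528). RIC_hEV 1 was its lowest library and ctr_hEV 1 its highest. Rps15a and Rps25 had log2 fold changes of -0.07 (SE 0.12) and -0.06 (SE 0.12). Rps15a, the lowest coding gene of the small subunit in level, had 13.9, 17.5, 17.5 and 13.8 FPKM in RIC_hEV 1 to 4, against 18.9, 14.7, 17.0 and 15.2 FPKM in ctr_hEV 1 to 4. Rps25, which some viral RNAs need for initiation, had 50.2, 66.9, 51.5 and 48.6 FPKM in RIC_hEV 1 to 4, against 60.1, 54.8, 56.3 and 54.3 FPKM in ctr_hEV 1 to 4, so that RIC_hEV 2 was high and the other 3 RIC_hEV libraries lay below every ctr_hEV library.

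Of further genes, picked for their roles after the values were known, Rpl5 and Rpl11, which with the smallest ribosomal RNA can hold the p53 regulator Mdm2, had log2 fold changes of -0.07 (SE 0.11) and -0.08 (SE 0.14). Rps6, the substrate of the kinases S6K, had 169 ± 17.0 FPKM in RIC_hEV and 170 ± 14.1 FPKM in ctr_hEV (SD, n = 4 per group). Rps19, mutated in the human red-cell disorder Diamond-Blackfan anemia, had 36.5 ± 4.92 FPKM in RIC_hEV and 35.5 ± 3.42 FPKM in ctr_hEV (SD, n = 4 per group). Each of these differences was smaller than the spread between libraries.

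Several ribosomal protein genes have a paralog or a copy, and in liver these pairs lay at very different ratios. Rps27l, which p53 can induce, was above its partner Rps27 in all 8 libraries. It had 144, 201.6, 176 and 144 FPKM in RIC_hEV 1 to 4 and 174.5, 135, 171 and 163 FPKM in ctr_hEV 1 to 4, and Rps27l over Rps27 was 1.45 ± 0.116 in RIC_hEV and 1.42 ± 0.0936 in ctr_hEV (SD, n = 4 per group). Rpl22l1, which Rpl22 holds down in mice, stood at 0.570 ± 0.0161 of its partner in RIC_hEV and 0.534 ± 0.0425 in ctr_hEV. Rpl7l1 over Rpl7 was 0.269 ± 0.0405 in RIC_hEV and 0.300 ± 0.0339 in ctr_hEV, and Rps4l over Rps4x was 0.0632 ± 0.0134 and 0.0730 ± 0.0180 in the same groups. In each of these 4 pairs the groups overlapped. Rps27l shared 16.1% of its stretches with other genes and Rps27 27.6%, and a ratio between genes also rests on the lengths used for FPKM, so the ratios are less certain than their spread shows. The log2 fold changes of Rps27l and Rpl22l1 were 0.04 (SE 0.14) and 0.05 (SE 0.13).

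**Figure D5:**
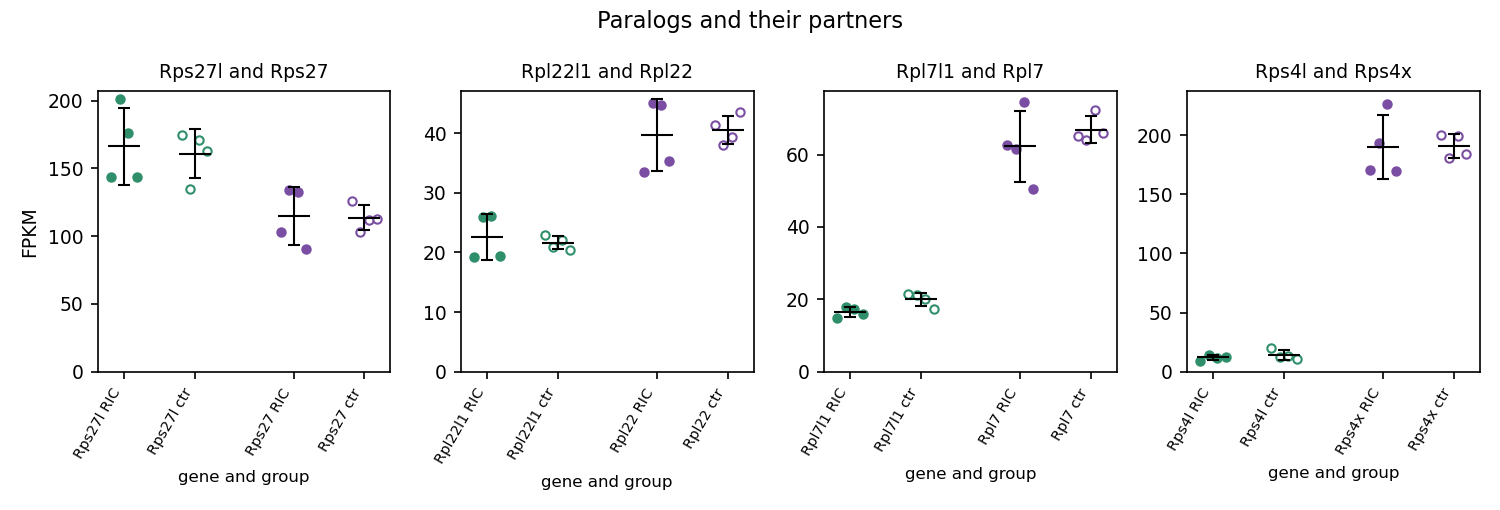
FPKM of 4 paralogs (green) and their partners (purple) in each library, RIC_hEV as filled and ctr_hEV as open circles, with the mean and SD of 4 libraries as bars and every axis from 0. Rps27l lies above Rps27 in both groups, Rpl22l1 and Rpl7l1 lie below their partners, and Rps4l lies near 0 beside Rps4x.

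The remaining paralogs were all but missing. Rpl3l, known from heart and skeletal muscle, was above 0 in 3 libraries and reached 0.0628 FPKM, while its partner Rpl3 had 92.2 ± 12.7 FPKM in RIC_hEV and 98.5 ± 13.2 FPKM in ctr_hEV (SD, n = 4 per group). Rpl10l, known from the testis, was listed at 0 in every library. Rpl39l, also known from the testis, was above 0 in 6 libraries and reached 0.300 FPKM, with 0.101 ± 0.106 FPKM in RIC_hEV and 0.105 ± 0.133 FPKM in ctr_hEV (two-sided exact permutation test over samples, p = 1, n = 4 per group). Its partner Rpl39 had 75.5 ± 15.1 FPKM in RIC_hEV and 74.5 ± 5.42 FPKM in ctr_hEV. Rps12l1 is annotated as a processed pseudogene, as are Rpl6l, Rps3a2 and Rps3a3, and was listed at 0 in every library. Rpl6l, Rps3a2 and Rps3a3 had mean levels of 21.1, 45.0 and 5.18 FPKM over all libraries and shared 84.4%, 92.9% and 78.4% of their stretches with other genes, so reads of their parent genes may stand under their names.

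Genes that act with the ribosomal proteins were read from lists chosen with earlier results of these data known. Of 4 ribosomal protein genes that the symbol rule leaves out, among them Fau, Rack1 and Rpl36al, 0 passed the threshold and 0 had an unadjusted p under 0.05 in limma, with a median log2 fold change of 0.067. Of 19 other mRNAs that carry a terminal oligopyrimidine tract, mostly translation factors, 0 passed and 2 (both lower in RIC_hEV) had an unadjusted p under 0.05, a share close to the 11.3% of all tested genes that were lower by this measure. The median log2 fold change was -0.049, between that of the ribosomal protein genes (0.017) and that of all genes (-0.11). Those 2 were Hnrnpa1, a splicing factor (log2 fold change -0.35, SE 0.12), and Eif4b, an initiation factor. Eif4b had 60.1 ± 3.60 FPKM in RIC_hEV and 71.6 ± 4.10 FPKM in ctr_hEV (SD, n = 4 per group), with a log2 fold change of -0.25, a limma adjusted p of 0.354 and groups that did not overlap. The groups also did not overlap at Npm1, a nucleolar chaperone that is in this list and in that of ribosome assembly, which had 23.5 ± 0.512 FPKM in RIC_hEV and 25.4 ± 2.17 FPKM in ctr_hEV (SD, n = 4 per group) and a log2 fold change of -0.10 (limma adjusted p = 0.577). At the other end were Eef1b2 (0.12) and Rack1 (0.10). The groups did not overlap at 2 of the 19, against 5.87% of all tested genes.

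The genes of ribosome assembly had a lower median than the ribosomal protein genes. Of 37 genes 36 were tested, 0 passed, 7 had an unadjusted p under 0.05, all lower in RIC_hEV (11.3% of all tested genes were lower by this measure), and the median log2 fold change was -0.21, or -0.10 relative to the median gene. Only 2 of the 36, Nop10 (0.13) and Nob1 (0.08), lay above 0, against 27% of all tested genes, and 8 lay above the median gene. The groups did not overlap at 2 of the 36, against 5.87% of all tested genes. Dkc1, the enzyme that turns uridine into pseudouridine in ribosomal RNA, had 2.05 ± 0.330 FPKM in RIC_hEV and 3.06 ± 0.216 FPKM in ctr_hEV (SD, n = 4 per group), a log2 fold change of -0.42 (SE 0.11, limma adjusted p = 0.332) with groups that did not overlap. Eif6, which keeps new large subunits from joining small ones too early, had 30.3 ± 1.06 FPKM in RIC_hEV and 41.6 ± 10.2 FPKM in ctr_hEV, a log2 fold change of -0.41 (SE 0.17, limma adjusted p = 0.354). The library ctr_hEV 1, with its high macrophage and stellate markers, is among the 4 of ctr_hEV, and the part of those cells in these values was not tested.

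Of 17 genes of mTORC1 and its translation targets, 0 passed the threshold and 1 had an unadjusted p under 0.05 in limma (higher in RIC_hEV, as were 2.63% of all tested genes, and 14% in either direction), with a median log2 fold change of -0.069. It was Ddit4, an inhibitor of mTORC1 that glucocorticoids and low oxygen induce, at 32.1 ± 6.36 FPKM in RIC_hEV and 18.9 ± 4.78 FPKM in ctr_hEV (SD, n = 4 per group). Its log2 fold change was 0.74 (SE 0.18, limma adjusted p = 0.332). The next highest was Akt1s1, an inhibitory subunit of mTORC1, at 0.21 (SE 0.20). The lowest were the cap-binding factor Eif4e at -0.51 (SE 0.34) and Myc, which drives ribosome synthesis, at -0.42 (SE 0.33). The Myc value rested on ctr_hEV 4 at 19.36 FPKM. The other ctr_hEV libraries held 4.772 to 7.363 FPKM of Myc and the RIC_hEV libraries 5.141 to 6.485 FPKM. None of these genes passed the adjusted threshold.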

How the data were processed

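Bulk RNA from mouse liver was sequenced in 4 RIC_hEV and 4 ctr_hEV libraries, grouped by their titles. RNA was extracted with Trizol, per the labels' protocols. Reads were handled on the build mm10 with HISAT2 2.2.1, HTSeq 0.13.5, Trimmomatic 0.38 and FastQC 0.11.9, per the submitters' processing notes. The authors deposited FPKM, 1 column per library. The strand setting, annotation, program and gene lengths behind these values were not given in the sources used here, so overlapping and antisense genes cannot be told apart.

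Of 55335 rows, 3225 without a gene name were left out of tests (0.176% to 0.207% of FPKM), and 26 symbols had turned into dates. Where a symbol had several rows (80 symbols), the row of highest mean stood for the symbol. Its other rows stayed as separate rows, so a symbol can count more than once among the tested genes. FPKM summed to between 389616 and 430326 per library. Depth was estimated from the steps of low values. Only 5.26% to 11.1% of these lay within 0.02 of whole steps, so the depths are rough and no count model was used.

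FPKM were taken to log2(FPKM + 1), and the 11274 genes averaging at least 1 FPKM were compared by linear models with moderated variance and a mean-variance trend (limma 3.58.1, R 4.3.3; two-sided, Benjamini-Hochberg adjustment, threshold 0.05). Fold changes on this scale understate those of low genes. Genes below the filter with values above 0 in at least 4 libraries had a two-sided exact permutation test over 70 assignments, with 0.0286 as the smallest possible p. The code was tested on simulated data.

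Coordinates, exon lengths and shared 31-base stretches come from GENCODE M21 (mm10), where all 88 symbols matched, and promoter windows from RefSeq (GRCm38.p6), for 63. The ribosomal protein genes and all other lists were chosen with earlier results of these data known. Genes named are those past the threshold, the 4 highest and 4 lowest log2 fold changes and the 3 highest levels of each subunit, genes whose groups did not overlap, the stalk genes with Rpsa, paralogs with their partners, and the 2 highest and 2 lowest of each other list. Genes named outside this rule are marked. Other pseudocounts, filters, scalings, a replicate block and fits without single libraries were run, and, chosen after seeing the data, medians over protein-coding members and over members with under 50% shared stretches. Some genes that the rule would name are not reported here and are left out of the plots of single genes by name.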

Additional observations from a re-analysis of the deposited data

Results flagged for a closer look

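Of 74 groups of 4 values screened (the named genes and paralog ratios in each group), 3 held a value far from the other 3, by a gap above the 95% critical value of Dixon's test for 4 samples. Chance flags about 1 in 20 such groups. Rps25 was at 66.91 FPKM in RIC_hEV 2, with 48.6 to 51.48 FPKM in the other RIC_hEV libraries. Rps21 was at 106.5 FPKM in ctr_hEV 2, with 118.0 to 120.1 FPKM in the other ctr_hEV libraries. The ratio of Rpl22l1 over Rpl22 was 0.4704 in ctr_hEV 4, with 0.5511 to 0.5598 in the other ctr_hEV libraries.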

How the results depend on the processing

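No ribosomal protein gene passed the adjusted threshold in limma under any of the 18 alternatives to the values reported (0 genes each, lowest adjusted p from 0.0926 without ctr_hEV 4 to 0.787 without ctr_hEV 1 and ctr_hEV 3 together). Over all genes, 4 passed. The count was 2 without the filter on low values, 1 with a mean FPKM of at least 5, 8 without ctr_hEV 1 and ctr_hEV 3 together, and 1 (without RIC_hEV 3 or RIC_hEV 4) to 176 (without ctr_hEV 4) when 1 library was left out. It was 2 without RIC_hEV 1. Ribosomal protein genes at an unadjusted p under 0.05 numbered 2, and 5 after median centring (among them Rpl18, Rpl26, Rplp2 and Rps28, all higher, against 12.03% of all genes). They numbered 1 without ctr_hEV 1 and ctr_hEV 3 together (5.21% of all genes). When 1 library was left out they numbered 1 to 2 (6.88% to 29.1% of all genes), with 1 without RIC_hEV 1, ctr_hEV 2 or ctr_hEV 3. Those whose groups did not overlap numbered 0, and 5 after median centring (6.24% of all genes). Such genes numbered 2 after quantile normalization (5.003% of all genes) and 7 without ctr_hEV 1 and ctr_hEV 3 together (14% of all genes). When 1 library was left out, 0 to 4 genes had groups that did not overlap (7.06% to 25.12% of all genes). The 4 were found without ctr_hEV 1 (7.93% of all genes) and were Rpl18, Rpl28, Rpl8 and Rplp2, all higher. The median of large minus small subunit genes ran from -0.0226 to -0.00053 when 1 library was left out, nearest 0 without RIC_hEV 2 or ctr_hEV 2 (-0.0010). It was -0.0192 over protein-coding genes and -0.0125 over genes with under 50% shared stretches.

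The median log2 fold change of the 84 genes lay between -0.065 (without RIC_hEV 3) and 0.064 (without RIC_hEV 1) when 1 library was left out, so its sign rested on single libraries. Without RIC_hEV 3, 29 of the 84 genes changed sign. Of 504 values of 28 named genes under the alternatives, 498 moved by less than the SD between libraries and 6 by more: Rpl36, Rpl7l1, Rps15, Rps28 and Rps3a1 after median centring, and Rplp2 without ctr_hEV 1 and ctr_hEV 3. The cause was not tested.

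Libraries with the same replicate number did not deviate together (correlations of 0.0524, 0.12, -0.00854 and -0.227). Low correlations cannot exclude a pairing, and the labels do not say whether the numbers pair libraries. With the replicate block, 3 of all genes and 0 ribosomal protein genes passed the threshold. Of the ribosomal protein genes, 1 had an unadjusted p under 0.05 (9.92% of all genes), and the groups of 0 did not overlap (5.87% of all genes). The medians with the block were 0.00018 for large, 0.022 for small and -0.021 for large minus small.

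Values rest on 4 libraries per group, with a median 95% half-width of 0.27 log2 units per gene. FPKM give no read counts, so counting error is unknown, and reads shared with near-identical copies cannot be assigned.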
